A study of Mus musculus with 4 samples.

Results

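The genes described here serve salt and water handling at the surface of the colon epithelium: the hormones guanylin (Guca2a) and uroguanylin (Guca2b), their receptor (Gucy2c), the anion channel Cftr, the anion exchanger Slc26a3, the carbonic anhydrases Car1, Car2 and Car4, and the water channel Aqp8. They were chosen by name as the probes whose annotated symbol, or its current synonym, is 1 of these 9. The choice was made with earlier results of these data known. All 9 were found among 16637 genes with a named probe, each with 1 probe, so no gene has a second probe to set beside the first. Colon RNA came from 24 female mice in 4 groups of 6, killed on day 7, with the strain written as BALB/c for the mock array and as BALC/c for the others. Mock mice received 0.1 ml of 50% ethanol alone. TNBS mice were given trinitrobenzene sulfonic acid at 250 mg/kg in that vehicle, a hapten that provokes colitis when combined with ethanol, so ethanol was common to all 4 groups. In the last 2 groups the same TNBS dose was mixed with ginger extract or with zingerone, a phenolic ketone of ginger. Amounts of both varied, and the labels leave unsaid which amount applied to an array and whether its RNA was pooled over mice. Each group had 1 array, so no difference below has an error or a p-value. The study asked whether ginger and zingerone lessen this colitis.

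Guanylin and uroguanylin are small peptides that intestinal epithelial cells release into the lumen. They bind guanylate cyclase C, the product of Gucy2c, on the apical membrane. The cyclic GMP made there acts through a kinase to open CFTR, through which chloride and bicarbonate leave the cell, and to restrain sodium uptake. Surface colonocytes take up chloride through SLC26A3 in exchange for bicarbonate, which carbonic anhydrases supply by hydrating carbon dioxide. Loss of SLC26A3 causes congenital chloride diarrhoea, and loss of CFTR function causes cystic fibrosis.

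Since these genes were lowest together on the TNBS array, the stretches before the start sites of 3 of them are shown: both hormones, which differed in how far they stood below mock, and the exchanger, whose pattern was closest to that of Guca2a. RefSeq windows (GRCm38.p6) were found for 6 of the 9 genes. The sequences are the 250 bases before the annotated start, 5′ to 3′, and capitals mark matches to 4 motifs searched on both strands: a GATA-type motif (AGATAA), an HNF1-type motif (GTTAAT), a CDX-type motif (TTTAT) and an HNF4-type motif (CAAAGTCCA). The window of Guca2a is chr4:119637482-119637731 (plus strand), that of Guca2b chr4:119658946-119659195 (minus strand) and that of Slc26a3 chr12:31437969-31438218 (plus strand).
Guca2a: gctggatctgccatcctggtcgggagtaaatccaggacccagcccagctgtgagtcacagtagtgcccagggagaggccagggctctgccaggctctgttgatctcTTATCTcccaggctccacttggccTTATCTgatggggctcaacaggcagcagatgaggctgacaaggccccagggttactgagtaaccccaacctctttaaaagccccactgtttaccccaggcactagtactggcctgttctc
Guca2b: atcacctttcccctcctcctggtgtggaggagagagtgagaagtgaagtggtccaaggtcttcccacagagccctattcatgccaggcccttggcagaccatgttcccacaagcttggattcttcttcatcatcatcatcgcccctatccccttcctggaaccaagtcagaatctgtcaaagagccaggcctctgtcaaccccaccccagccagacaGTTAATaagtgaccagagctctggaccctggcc
Slc26a3: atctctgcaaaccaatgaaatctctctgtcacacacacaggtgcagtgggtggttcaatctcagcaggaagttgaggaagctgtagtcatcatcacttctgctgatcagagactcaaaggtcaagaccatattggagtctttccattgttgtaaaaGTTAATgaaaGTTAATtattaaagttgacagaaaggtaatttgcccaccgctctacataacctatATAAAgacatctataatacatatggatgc
The matches differed between windows. Guca2a held the GATA-type motif on the opposite strand, starting 144 and 120 bases before the start, a motif found in 9.99% of 32851 RefSeq windows of this length. Guca2b held the HNF1-type motif 33 bases before the start. Slc26a3 held that motif 94 and 84 bases before the start, and 6.43% of windows hold it. The CDX-type match of Slc26a3, 29 bases before the start, overlaps the letters TATAAA, and 37.3% of windows hold that motif. Aqp8 held the CDX-type motif 6 bases before its start, while the windows of Car4 and Cftr held none of the 4. The HNF4-type motif was in none of the 6 and is in 0.384% of windows. These matches describe letters only, and GC content ran from 38.8% in the Slc26a3 window to 76.4% in that of Cftr.

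Signal was measured as Cy3 intensity per probe on a linear scale. The 4 arrays shared nearly 1 distribution, each with a largest value of 64634, and the median of named probes was 270.5 on mock, 269 on TNBS, 270.2 with ginger and 272.2 with zingerone. A gene is called measured if it reached that median on at least 1 array, which 10056 genes and all 9 described here did. Counts of higher and lower genes take a gap of at least 2-fold, that is 1 on the log2 scale, between a pair of arrays, and smaller gaps are given by their size only. Low values seem to carry background, so folds of dim probes are understated, which bears most on Gucy2c and Cftr. No probe of the 9 genes stood apart on 1 array while the other 3 agreed. Single genes are not compared with each other in level, because a probe's brightness is not a level per length, and sums over a list, given for cell type markers only, weigh its brightest probes most.

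All 9 genes were lowest on the TNBS array, and 6 of them were at least 2-fold lower there than on the mock array (Guca2a, Guca2b, Slc26a3, Car2, Car4 and Cftr), against 4.52% of all measured genes. None was 2-fold higher on TNBS, against 5.08%. Their median difference, TNBS minus mock, was -1.93 (log2), where that of all measured genes was -0.04. All 9 lay below mock, as did 5405 of 10056 measured genes. The share of all genes lowest on TNBS was not counted. The span ran from -0.64 for Car1 to -3.01 for Car4. With ginger, 4 of the 9 were at least 2-fold higher than on TNBS alone, against 1.35% of measured genes, and with zingerone 7 were, against 4.57%. These shares are larger among bright genes. Of 5174 genes kept by a filter at the 75th percentile, 2.34% were higher with ginger and 7.19% with zingerone. Of the same genes 7.85% were lower on TNBS than on mock. That filter kept 8 of the 9. None of the 9 was 2-fold lower than on TNBS with ginger (2.48% of measured genes) or with zingerone (2.96%). The ginger count rests on the line chosen: Car4 (1.98-fold above TNBS) and Cftr (1.96-fold) lay just under it, and 7 of the 9 passed after subtraction of each array's 5th percentile, where 3.28% of measured genes did. The median of the 9 was 0.98 (log2) for ginger minus TNBS and 1.50 for zingerone minus TNBS, where all measured genes had medians of 0.02 and -0.02. The mock array is shared by the comparisons with mock and the TNBS array by those with TNBS, so these counts do not stand alone. As the 9 were chosen with earlier results known, their counts beside the shares of all measured genes are no independent evidence. Fewer colonocytes and less RNA per colonocyte cannot be told apart in whole tissue.

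**Figure D1:**
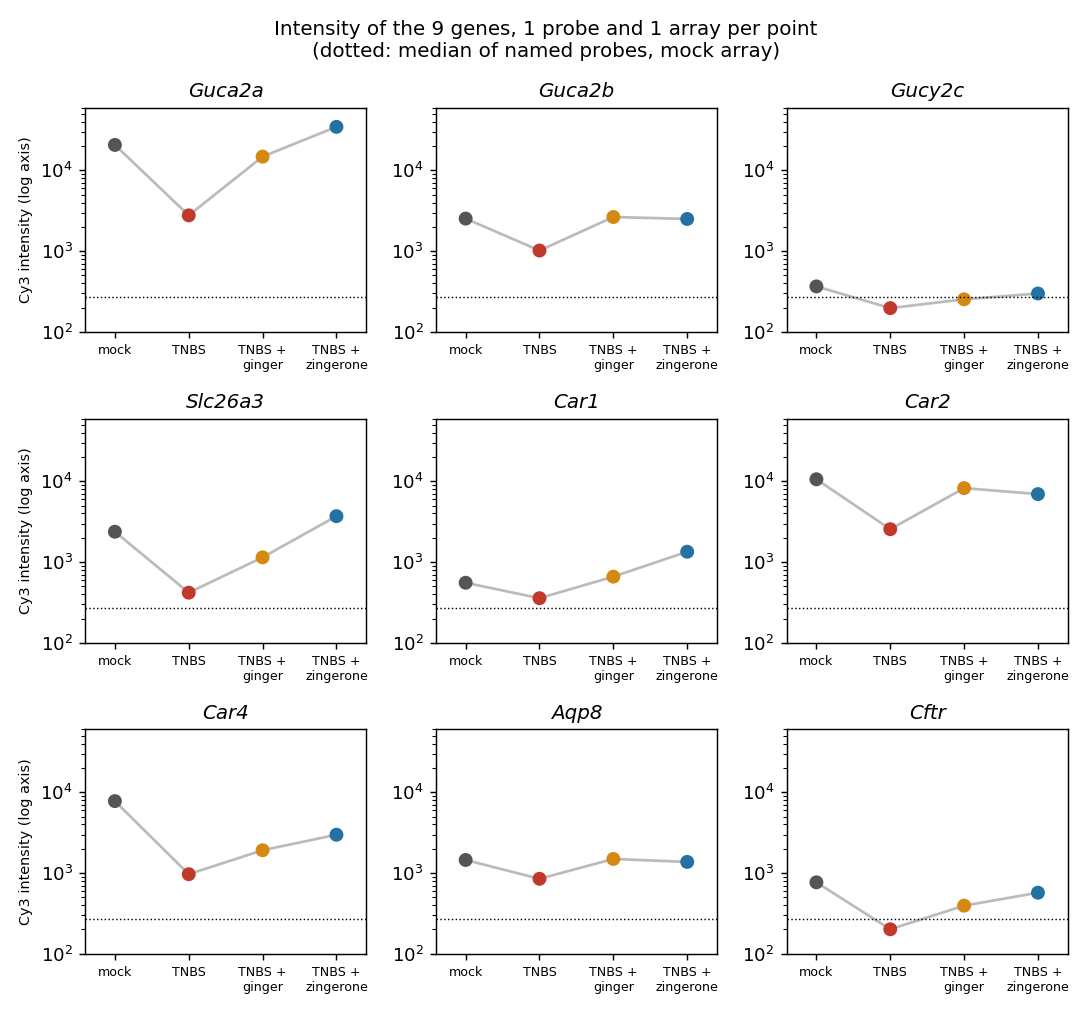
Cy3 intensity (log axis) of the 9 genes on the mock, TNBS, TNBS with ginger and TNBS with zingerone arrays, 1 probe and 1 array per point, with grey lines only to guide the eye. Each gene is lowest on the TNBS array, and Gucy2c lies close to the dotted median of named probes (270.5).

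Guca2a, the gene of guanylin, had an intensity of 20660 on mock, 2772 on TNBS, 14803 with ginger and 34596 with zingerone. The TNBS array thus stood at 13.4% of mock, ginger at 71.6% and zingerone at 167%. This gene had the greatest contrast with TNBS of the 9 on both treated arrays, 2.42 (log2) with ginger and 3.64 with zingerone. Guca2b, the gene of uroguanylin, had 2529 on mock, 1017 on TNBS, 2645 with ginger and 2502 with zingerone. It was 2.49-fold lower on TNBS than on mock, and the other 3 arrays lay within 1.06-fold of each other. The hormone genes are neighbours on chromosome 4 with no protein-coding gene between them in GRCm38.p6. Zingerone minus mock was 0.74 (log2) for Guca2a and -0.02 for Guca2b, both within 2-fold.

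Gucy2c, which encodes the receptor of both hormones, had 365.5 on mock, 197 on TNBS, 253 with ginger and 298.5 with zingerone. It was the dimmest probe here relative to the median of named probes, reaching it on mock and zingerone only. The TNBS array was 1.86-fold below mock, which misses the 2-fold line. After subtraction of each array's 5th percentile as background, its difference was -1.71 (log2) in place of -0.89, and lower by the 2-fold rule. Cftr, the chloride and bicarbonate channel of crypt cells that this pathway opens, had 767 on mock, 201 on TNBS, 394.5 with ginger and 571 with zingerone. It was 3.81-fold lower on TNBS than on mock. Ginger was 1.96-fold above TNBS and zingerone 2.84-fold, and ginger remained at 51.4% of mock. With the same subtraction ginger was 1.79 (log2) above TNBS and -1.24 from mock, both past 2-fold.

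Slc26a3, the exchanger that takes up chloride for bicarbonate, had 2377 on mock, 418 on TNBS, 1145 with ginger and 3704 with zingerone. The TNBS array was 5.69-fold below mock. Ginger was 2.74-fold above TNBS and yet 2.08-fold below mock, and zingerone was 8.86-fold above TNBS and 1.56-fold above mock. This was the widest gap of the 9 genes between the treated arrays, with zingerone 3.23-fold above ginger.

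The 3 carbonic anhydrases did not share 1 pattern. Car4, which is anchored to the outer face of the apical membrane, had 7778.5 on mock, 968 on TNBS, 1915 with ginger and 2981 with zingerone. It was the lowest of the 9 relative to mock on all 3 TNBS-treated arrays, at 12.4% of mock on TNBS, 24.6% with ginger and 38.3% with zingerone. Car2, the cytosolic enzyme of high activity, had 10607 on mock, 2556 on TNBS, 8240 with ginger and 6954 with zingerone. It was 4.15-fold lower on TNBS, and its ginger and zingerone values lay within 1.18-fold of each other, both below mock. Car1, the other cytosolic enzyme and abundant in colon, had 555 on mock, 357 on TNBS, 660 with ginger and 1344 with zingerone. It was the only one of the 9 at least 2-fold above mock on a treated array, 2.42-fold on zingerone, and the TNBS array was 1.55-fold below mock.

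Further carbonic anhydrase genes differed little between arrays. Of 13 with a probe 6 were measured (Car3, Car5b, Car9, Car12, Car13 and Car14), none was 2-fold apart in any of the 6 comparisons, and their median was -0.01 (log2, TNBS minus mock). Car3, Car5b and Car13 were dim, with 374, 248 and 340 on mock, so their folds may be understated. The rest of the 13 did not reach the median of named probes on any array. Car9, an enzyme of hypoxic cells, was nearest to the line, at 850.5 on mock, 1139.5 on TNBS, 1628 with ginger and 1392 with zingerone, 1.91-fold above mock on ginger. Car14 had 509.5 on mock and 386 on TNBS. Car12, found on basolateral membranes, had 741 on mock and 651 on TNBS. Among protein-coding genes in RefSeq, Car13, Car1, Car3 and Car2 follow one another on chromosome 3. The TNBS-minus-mock differences along this row were 0.05, -0.64, -0.07 and -2.05 (log2). Only Car2 of this cluster passed 2-fold in that comparison, though the probes of Car13 and Car3 are dim, as is that of Car1 on TNBS. After subtraction of each array's 5th percentile Car1 was at -0.88, still within 2-fold.

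**Figure D2:**
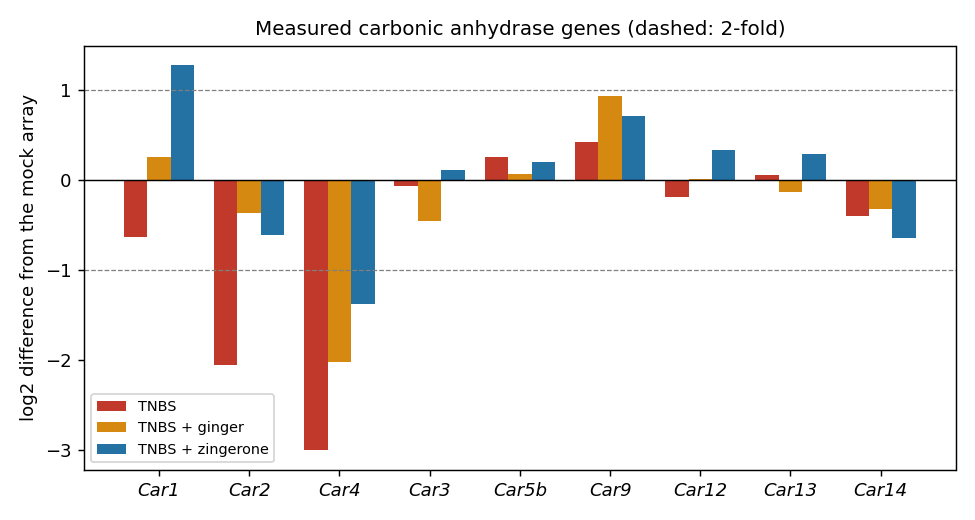
Log2 difference from the mock array of the 9 measured carbonic anhydrase genes on the TNBS (red), ginger (orange) and zingerone (blue) arrays, 1 array each, with dashed lines at 2-fold. Car2 and Car4 lie past 2-fold below mock on TNBS, Car4 does so on all 3 arrays, and Car1 is past 2-fold above mock on zingerone only.

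Aqp8, a water channel of surface colonocytes, had 1451 on mock, 849 on TNBS, 1494 with ginger and 1373 with zingerone. It was 1.71-fold lower on TNBS than on mock and within 2-fold in every comparison. The ginger, mock and zingerone arrays lay within 1.09-fold of each other, the same order of arrays as for Guca2b.

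Against mock, Car4 was at least 2-fold low on both treated arrays. On ginger 2 of the 9 were at least 2-fold lower, Slc26a3 (-1.05) and Car4 (-2.02), against 1.08% of measured genes, and none was higher, against 1.62%. The median was -0.48 (log2), where that of all measured genes was 0.01. Below mock lay 6 of the 9, and 4918 of 10056 measured genes. On zingerone Car4 alone was lower (-1.38), against 1.05% of measured genes, and Car1 alone was higher (1.28), against 1.53%. The median there was -0.08. Between the treated arrays, zingerone was at least 2-fold higher than ginger for Guca2a (1.22), Slc26a3 (1.69) and Car1 (1.03), against 0.746% of measured genes, and none of the 9 was 2-fold lower, against 0.358%. Gucy2c, Car4 and Cftr were higher on zingerone by less, and Guca2b, Car2 and Aqp8 were slightly lower, the deepest at -0.24 for Car2. Amounts of ginger extract and zingerone are unknown, so these differences are not between matched doses.

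**Figure D3:**
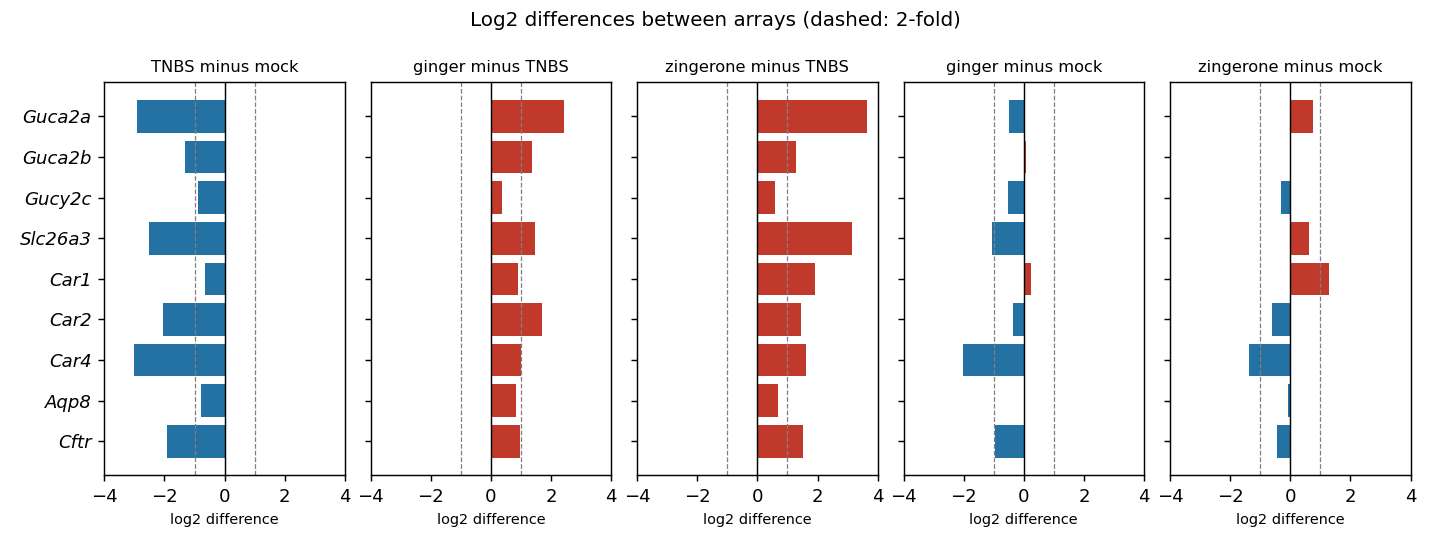
Log2 differences of the 9 genes between pairs of arrays, 1 array per group, blue for lower and red for higher, with dashed lines at 2-fold. TNBS minus mock is below 0 and ginger and zingerone minus TNBS are above 0 for each gene, while against mock only Car4 stays past 2-fold below on both treated arrays.

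The wider pathway was taken from lists of genes. Their counts stand against 4.52% of all measured genes 2-fold lower and 5.08% higher on TNBS than on mock. Against TNBS, 1.35% were higher with ginger and 4.57% with zingerone, and 2.48% and 2.96% were lower. The lists are short, so a count of 1 or 2 genes is not read as a result of the list. Guanylate cyclase and cyclic GMP genes other than the hormones and Gucy2c stayed within 2-fold: of 21 with a probe 6 were measured, none was 2-fold apart in any comparison, and the median was 0.05 (log2, TNBS minus mock). Pde9a, a phosphodiesterase that breaks down cyclic GMP, had 4987 on mock, 6459 on TNBS, 5956 with ginger and 8588 with zingerone. Npr2, the receptor of C-type natriuretic peptide, had 2202 on mock and 1653 on TNBS, and Vasp, a kinase substrate on actin, was 1.38-fold higher on TNBS. Pde6d was 1.15-fold lower. Prkg2, the kinase that couples guanylate cyclase C to CFTR and was named after its values were seen, did not reach the median of named probes on any array, with 122 on mock and 162.5 on TNBS.

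Among apical exchangers, anion channels and their scaffolds, 10 of 17 genes with a probe were measured. Of these 2 were at least 2-fold lower on TNBS than on mock, against 4.52% of measured genes. Best2, a bicarbonate-conducting channel of goblet cells, had 684 on mock, 238 on TNBS, 409 with ginger and 802 with zingerone. Clcn2, a chloride channel, had 1457.5 on mock, 675 on TNBS, 1285 with ginger and 1452 with zingerone. The same 2 genes were at least 2-fold higher on zingerone than on TNBS, and none of the list was on ginger. The list's median was -0.31 (TNBS minus mock), and 9 of its 10 genes lay below mock, as did 5405 of 10056 measured genes. Slc9a3, the sodium-proton exchanger that works beside SLC26A3 and was named after its values were seen, did not reach the median of named probes on any array, with 216 on mock and 169.5 on TNBS.

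Sodium, potassium and water transport genes differed both ways. Of 25 measured, 3 were at least 2-fold lower on TNBS than on mock (4.52% of measured genes) and 2 higher (5.08%). Their median was -0.05. Kcne3, the subunit that keeps the basolateral potassium channel KCNQ1 open for chloride secretion, had 1315 on mock, 292 on TNBS, 731 with ginger and 1208 with zingerone. Atp12a, a colonic proton-potassium pump, had 3173.5 on mock, 871 on TNBS, 1427 with ginger and 1164 with zingerone, and it was still 2.73-fold below mock on zingerone. Atp1b1, a subunit of the sodium pump, was 3.43-fold lower on TNBS in the mean of 2 probes. The 2 that were higher, named after their values were seen, were the sodium pump modulators Fxyd5 (3.58-fold) and Fxyd4 (2.17-fold). Fxyd4 had 658 on mock, 1427 on TNBS, 1431.5 with ginger and 4413 with zingerone, so its signal was highest on zingerone, 6.70-fold above mock. Compared with TNBS, Kcne3 and Atp1b1 were at least 2-fold higher with ginger. With zingerone Kcne3, Atp1b1, Fxyd4 and the steroid dehydrogenase Hsd11b2 (2.11-fold) were higher, while Fxyd5 (2.27-fold) and the pump subunit Atp1b3 (2.01-fold) were lower. Hsd11b2 and Atp1b3 were likewise named after their values were seen. Of 7 measured secretagogue receptor and cyclic AMP genes, P2ry2, a nucleotide receptor, was 2.22-fold higher on TNBS and none was 2-fold lower, with a median of -0.26. Adcy6, an adenylate cyclase, was 1.57-fold lower.

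**Figure D4:**
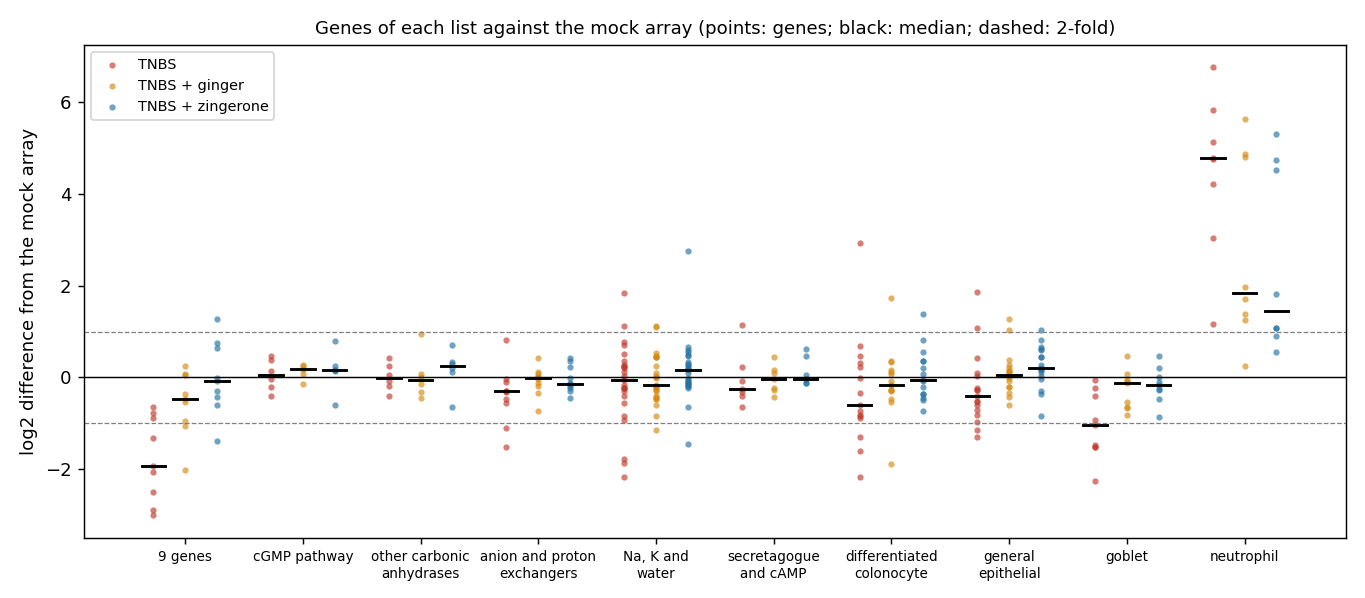
Log2 difference from the mock array of each measured gene of 10 lists on the TNBS (red), ginger (orange) and zingerone (blue) arrays, with black bars at the medians and dashed lines at 2-fold. On TNBS the median of the 9 genes is -1.93, below those of the other transport, epithelial and goblet lists plotted, while neutrophil markers have a median of 4.77.

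Markers of cell types also differed between these arrays, and their part in the results above was not tested. Counts in all marker lists below stand against 4.52% of measured genes lower and 5.08% higher on TNBS than on mock. General epithelial markers, which check the tissue label, were measured for 17 of 19 genes. Their summed intensity was 211269 on mock, 185952 on TNBS, 225557 with ginger and 245848 with zingerone. Their median was -0.41 (log2, TNBS minus mock), with 2 of 17 lower (Klf5 2.48-fold and Cdx2 2.20-fold) and 2 higher, the claudin Cldn4 at 3.63-fold and the keratin Krt18, named after its values were seen, at 2.12-fold. Epcam, a surface protein of all colon epithelium and likewise named afterwards, had 16460 on TNBS and between 23352 and 23980 on the other arrays. The keratin Krt8, also named afterwards, went the other way, with 36534 on mock and 48876 on TNBS. Of the 17 genes 12 lay below mock on TNBS and 5 above. Cdx2 and Cdx1, transcription factors of intestinal identity, were 3.85-fold and 2.39-fold higher on zingerone than on TNBS.

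Markers of differentiated colonocytes other than these 9 genes had 3 of 15 lower and 1 higher on TNBS, with a median of -0.59. Of the 15, 10 lay below mock and 5 above, where 5405 of 10056 measured genes lay below. Fabp2, a fatty acid binding protein, was 4.48-fold lower, and Lypd8 (3.05-fold) and Mep1a (2.46-fold), named after their values were seen, were the other 2. Emp1, a membrane protein, was 7.58-fold higher, and the keratin Krt20, named after its values were seen, was 1.61-fold higher. Alpi, intestinal alkaline phosphatase, was 1.84-fold lower on TNBS and 3.25-fold higher on zingerone than on TNBS. With ginger, Fabp2 was 3.24-fold and Alpi 2.07-fold above TNBS. In all, 9 of the 15 genes lay above TNBS and 6 below, with a median of 0.17 (log2), while 5304 of 10056 measured genes lay above. Emp1 was 2.29-fold below TNBS with ginger, and Lypd8 was 1.21-fold below it, at 27.2% of mock. With zingerone 9 of the 15 lay above TNBS and 6 below, with a median of 0.39, while 4863 of 10056 measured genes lay above. Fabp2 (3.26-fold), Alpi and Lypd8 (2.38-fold) were at least 2-fold higher than on TNBS, against 4.57% of measured genes. Emp1 was 2.93-fold lower, against 2.96%. The summed intensity was 101548 on mock, 80014 on TNBS, 81609 with ginger and 109246 with zingerone. Of this Plac8 alone gave 35598 on TNBS and 37843 with ginger, and Lypd8 gave 11312 and 9370. Goblet cell markers had 5 of 9 lower on TNBS and a median of -1.03, with Spink4 4.78-fold and Retnlb 2.87-fold lower, and a sum of 206021 on mock, 118259 on TNBS, 169157 with ginger and 194828 with zingerone.

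Neutrophil markers ran the other way, with 8 of 8 measured higher on TNBS than on mock and a summed intensity of 5520 on mock, 186175 on TNBS, 105364 with ginger and 83776 with zingerone. Among them Lcn2, S100a9, Mmp8 and Retnlg were 109-fold, 57.0-fold, 27.5-fold and 18.6-fold higher. With ginger the sum was mostly S100a9 and S100a8, the latter named after its values were seen, which were within 1.19-fold of TNBS, whereas the list's median of ginger minus TNBS was -1.80 (log2), with Mmp8 11.5-fold and Retnlg 5.68-fold lower. Fibroblast markers had 2 of 8 higher (Vim 5.61-fold, Thy1 2.37-fold) and a sum of 7973 on mock, 24493 on TNBS, 10810 with ginger and 10250 with zingerone, with a median of 0.71 (log2, TNBS minus mock). Vim made up 3388 of that sum on mock and 18998 on TNBS, while the collagen genes Col1a2 (-0.70) and Col1a1 (-0.11), named after their values were seen, were below mock, and Dcn differed 1.15-fold. Smooth muscle markers had 1 of 9 lower, Smtn (3.95-fold), with Des 1.71-fold higher, and a sum of 27053 on mock, 24657 on TNBS, 23241 with ginger and 15587 with zingerone. On zingerone 2 of the 9 were at least 2-fold lower than on TNBS, Des (-1.09, log2) and Actg2 (2.09-fold), against 2.96% of measured genes. Compared with mock, 3 of the 9 were lower on zingerone, against 1.05%, and none was higher, with a median of -0.59 (log2). Small intestine markers were measured for 5 of 7 genes, with a sum of 2205 on mock and 1488 on TNBS. Slc5a1 was 2.04-fold lower, Fabp6 1.64-fold and Fabp1 1.16-fold. No marker in any list was at 0, since every probe kept some signal.

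For each of the 7 genes whose arrays spanned at least 2-fold, the 3 measured genes with the closest profile were found by the Euclidean distance between log2 values centred over the 4 arrays. Slc26a3 was the closest gene to Guca2a (distance 0.69), followed by Smim6 (0.75) and Thbs4 (0.89). That distance of 0.69 was the largest to a closest gene among the 7. Slc26a3 was closest to Smim6 (0.40), Thbs4 (0.55) and Atp5b (0.58), so Guca2a was not among its 3 closest. All of these were low on TNBS and highest or near highest on zingerone. Car1 was nearest to Alpi (0.35), Bex1 (0.36) and Krtap7-1 (0.37), which were likewise highest on zingerone.

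The other 4 genes had neighbours with other shapes. Guca2b was closest to Usp28 (0.06), Mas1 (0.06) and Spc24 (0.10), which were low on TNBS alone. Car2 was closest to Klk1b5 (0.19), Fabp2 (0.21) and Tpsg1 (0.22). Cftr was closest to Bphl (0.08), Anapc13 (0.11) and the membrane mucin Muc13 (0.13), with values in the order TNBS, ginger, zingerone, mock. Car4 was closest to Pigr (0.52), the carrier of IgA across the epithelium, Dmbt1 (0.62) and Ifi27l2b (0.63), each far below mock on ginger too, with Pigr at 2977 on mock and 813.5 on ginger. A distance over 4 arrays describes these arrays only.

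**Figure D5:**
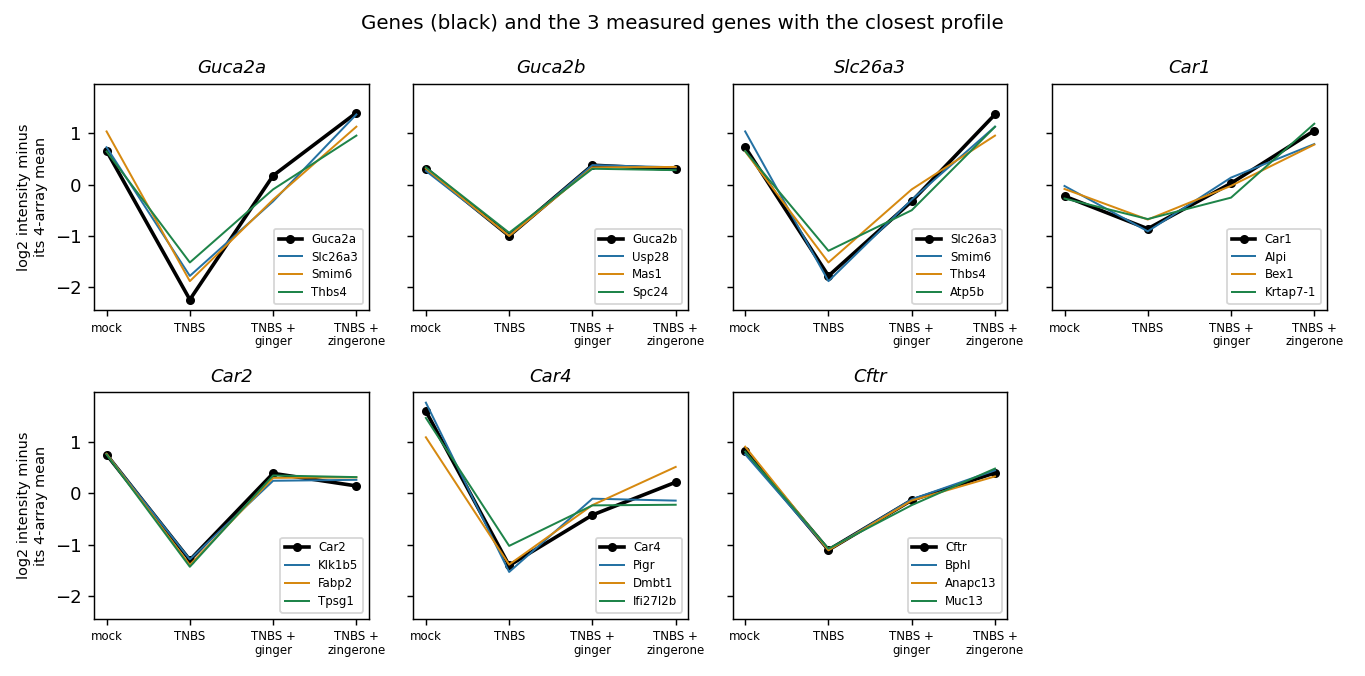
Log2 intensity minus its 4-array mean on the mock, TNBS, ginger and zingerone arrays for 7 of the genes (black, with points) and the 3 measured genes closest to each (coloured lines), 1 array per group. Guca2a, Slc26a3 and Car1 and their neighbours peak on zingerone or come near to it, Guca2b and its neighbours are low on TNBS alone, and Car4 is highest on mock.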

How the data were processed

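Colon RNA of 4 groups was hybridised to 1-colour arrays, 1 array per group, with Cy3-labelled target made from 5 µg of total RNA by amplification, per the labels' protocols. The deposited table holds 1 linear intensity per probe and array. The tool limma is listed in the submitters' processing notes with no version or role, while the scanner, the background handling and the normalization step are not given in the sources used. Once sorted, the deposited intensities of the arrays agree to within 1.84%, a pattern that quantile normalization leaves.

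Of 29922 probes 21020 had 1 gene symbol, and the other 8902, without a single symbol, were left out of the gene values. Symbols were updated through RefSeq synonyms (GRCm38.p6): 17558 were current, 3410 updated and 52 kept. Intensities were taken to log2 without a pseudocount, and probes of a gene were averaged (Python 3.11.15, pandas 2.3.3, numpy 2.4.6). With 1 array per group no test was run, and precision is limited by the number of arrays.

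The 9 genes and the 12 lists were chosen with earlier results of these data known. Named genes were the 9, from each list the 2 measured genes with the largest difference of TNBS from mock and the 2 of zingerone from TNBS, and for each of the 9 spanning 2-fold the 3 with the closest profile. Others are marked as named after their values were seen. The counting steps were checked on simulated data. The 8 alternative settings changed 1 step each: arrays were quantile normalized or set to equal medians; intensities had a 25th percentile floor, or each array's 5th percentile was taken off and values under 50 were raised to 50; dim genes were all kept, or cut at the 75th percentile; a gene was read from its brightest probe; and probes that differ at least 4-fold on 1 array from the other 3, themselves within 1.41-fold, were dropped.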

Additional observations from a re-analysis of the deposited data

Results flagged for a closer look

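The 61 genes named by rule (the 9, those from the lists and those of closest profile) were searched for ginger and zingerone arrays on opposite sides of the mock array and at least 2-fold apart. This held for 6 of them, and for 79 of all 10056 measured genes (0.786%). The 9 were chosen with earlier results known and the others by values on these arrays, so the shares cannot be compared. Slc26a3 was -1.05 (log2) from mock on ginger and 0.64 on zingerone, a gap of 1.69. Guca2a was -0.48 from mock on ginger and 0.74 on zingerone, a gap of 1.22. Cdx2, a transcription factor of intestinal identity, was -0.21 and 0.81, a gap of 1.02. It was named for its large difference of zingerone from TNBS, so it is no independent evidence. The other 3 were chosen for a profile like that of Guca2a or Slc26a3 and so are no evidence either: Smim6 (-1.33 and 0.09, a gap of 1.42), Thbs4 (-0.74 and 0.31, a gap of 1.05) and Atp5b (-1.15 and 0.47, a gap of 1.63). These differences were not tested, since each group has 1 array.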

How the results depend on the processing

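No paired analysis was possible because each group has 1 array. Calls follow the 2-fold line, as there is no spread between replicates. Of 426 values of single genes under the 8 alternative settings, 420 kept their direction and their side of that line, and the other 6, all after subtraction of each array's 5th percentile, passed it: Gucy2c on TNBS against mock (-1.71) and on zingerone against TNBS (1.25), Car1 (1.20), Car4 (1.08) and Cftr (1.79) on ginger against TNBS, and Cftr on ginger against mock (-1.24). None reversed. These counts say little about how firm the calls are: most settings could not move a value. Each gene has 1 probe and none stood apart, so brightest-probe and dropped-probe settings returned the same values. So did the 25th percentile floor and both dim-gene filters, for the genes kept. Quantile normalization and equal medians barely changed arrays whose sorted values already agreed to within 1.84%. Under the subtraction, 48 values kept their side and 6 passed the line. With that subtraction 7 of the 9 genes in place of 4 were at least 2-fold higher on ginger than on TNBS, and their median was 1.50 in place of 0.98. It was 1.18 with the filter at the 75th percentile, which left out Gucy2c. The subtraction also raised the counts over all genes that serve as background: 841 in place of 455 lower on TNBS than on mock (8.47%), 326 in place of 136 higher on ginger than on TNBS (3.28%), 963 in place of 460 higher on zingerone than on TNBS (9.70%), 280 in place of 109 lower on ginger than on mock (2.82%), 195 in place of 106 lower (1.96%) and 379 in place of 154 higher (3.82%) on zingerone than on mock, and 314 in place of 75 higher on zingerone than on ginger (3.16%). Every gene here rests on 1 probe. Over 1775 measured genes with 2 probes, the probes' TNBS-minus-mock differences lay a median of 0.40 (log2) apart, with a 95th percentile of 1.35. Dim probes (Gucy2c, and Cftr and Car1 on TNBS) are limited by background.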
